A study of Mus musculus with 6 samples.

Results

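The 7 genes described here, which carry bile acids through the gut epithelium or answer to them, were followed in jejunal epithelium (the jejunum lies between duodenum and ileum) of mice with an induced Musashi transgene. They were Slc10a2, Nr1h4, Fgf15, Fabp6, Slc51a, Slc51b and Nr0b2, taken by name from the 19938 genes that had an array row with exactly 1 annotated symbol. Each of the 7 had 1 such row, so the rule of keeping a gene's brightest row, chosen by the mean signal over the 6 arrays, selected nothing here. The list was drawn up with earlier results of these arrays known, among them the rise of Slc10a2, so the members' differences and p-values describe these arrays and are not independent evidence.

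Total RNA of epithelial cell preparations was hybridised to whole-transcript gene arrays, and values were log2 signals. The transgenic group, 3 arrays, came from mice that carried both R26-M2rtTA, an activator of transcription that works in the presence of doxycycline, and a TRE-driven Musashi transgene. The control group, 3 arrays, came from mice with R26-M2rtTA and no such transgene. All mice of both groups drank doxycycline for 24 h before cells were isolated, so no array shows an animal without the drug. The series text names the transgene TRE-Msi1 and the genotype label of the same samples names TRE-MSI2. The activator sits at the broadly active Rosa26 locus, so induction was not limited to the epithelium by the label, and the labels give no strain, age or sex. The series text calls the samples animals, so each array was taken as a biological replicate.

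Bile acids are made from cholesterol in the liver, secreted into the gut and taken back mainly in the ileum, the last part of the small intestine. There the sodium-dependent carrier Slc10a2 brings them into the enterocyte, the absorptive cell, Fabp6 binds them in the cytosol, and the heteromer of Slc51a and Slc51b lets them out across the basolateral membrane. Inside the cell they activate FXR, the nuclear receptor encoded by Nr1h4, which pairs with RXR and is known to raise Fgf15, a hormone that lowers bile acid synthesis in the liver, as well as Fabp6, Slc51a, Slc51b and Nr0b2. Nr0b2, called SHP, is a repressor that lacks a DNA-binding domain and is known to restrain Slc10a2 in the mouse through LRH-1. In the jejunum Slc10a2 and Fabp6 are normally kept low, and the factor GATA4 with its FOG cofactors is known for that repression.

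The uptake carrier and the receptor were higher in the transgenic arrays. The hormone, the cytosolic binding protein and the repressor were not called in either direction. Slc10a2 rose 11.3-fold and Nr1h4 rose 2.68-fold, by limma with Benjamini-Hochberg adjustment over all genes at an adjusted p under 0.05. These were the 2 members of 7 that passed, and 0 fell; over all 19938 genes 6.04% passed as higher and 5.84% as lower, and the median difference was -0.04. The 2 subunits of the exporter were not called, and their values differed in pattern: the Slc51a signal was lower on every transgenic array, and the Slc51b signal was lower on transgenic replicate 1 and higher on transgenic replicates 2 and 3. The 2 groups did not overlap for 3 of the 7 members, 2 with higher and 1 with lower transgenic values; of all genes 34.2% did not overlap, 16% higher and 18.2% lower.

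**Figure D1:**
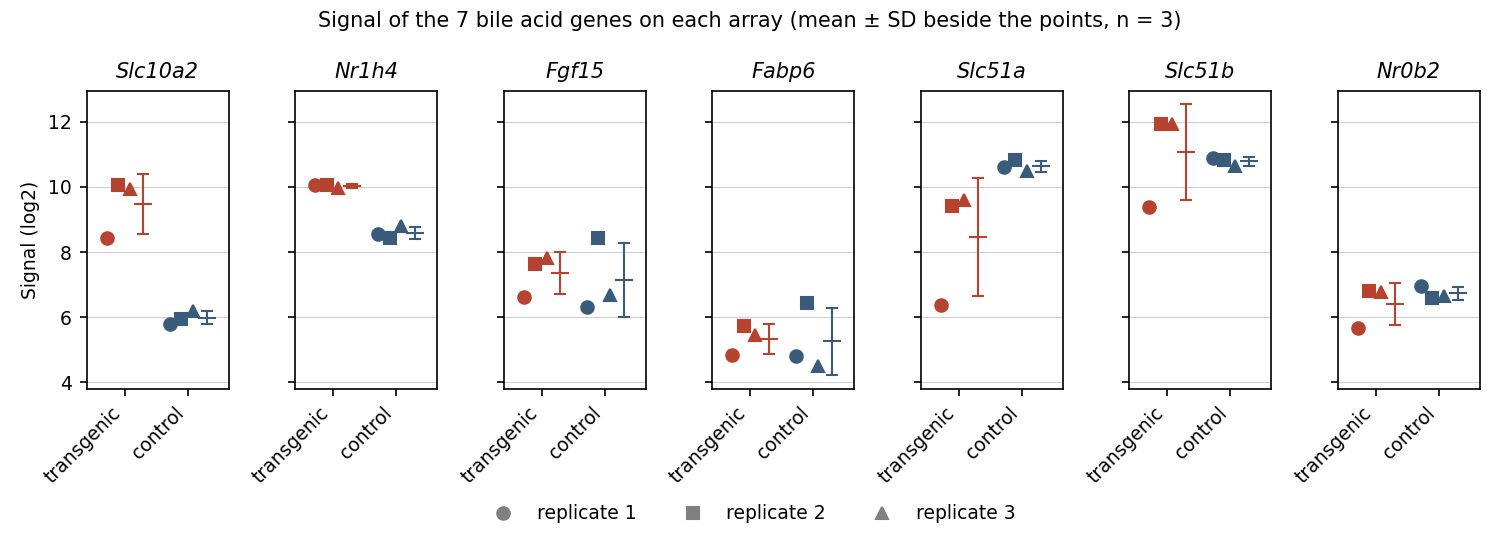
Log2 signal (vertical axis) of each of the 7 genes on the 3 transgenic arrays (red, left in each panel) and the 3 control arrays (blue, right). Symbols mark the replicate number and the bars beside them the mean and SD (n = 3). Slc10a2 and Nr1h4 lie higher on all transgenic arrays, Slc51a lies lower on all of them, and transgenic replicate 1 (circle) is the lowest transgenic array for all genes but Nr1h4.

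The arrays of the series were checked before the members were read. Msi1 (row 10524684) had 12.51, 12.68 and 12.62 on the transgenic arrays, against 6.95, 7.03 and 6.86 on the control arrays, and Msi2 (row 10389680) had 8.57, 8.08 and 8.01, against 8.59, 8.71 and 8.62. The difference was 5.66 for Msi1 (limma adjusted p = 1.34e-05) and -0.42 for Msi2 (limma adjusted p = 0.168, not passed). The raised signal was thus that of Msi1, the gene in the series text's name of the transgene. Transgenic replicate 1 stood apart, with correlations across genes of 0.9215 to 0.9515 with the other 5; transgenic replicates 2 and 3 correlated at 0.996, and pairs of controls at 0.9948 to 0.996. Of 11 enterocyte markers 1 passed as higher and 0 as lower. The 1 was Cdh1 (0.34), whose call was lost on removal of any 1 of the 5 arrays other than transgenic replicate 1 (adjusted p up to 0.161). Their summed signal was 14.29 to 15.80 on the transgenic arrays and 15.90 to 16.01 on the control arrays (log2 of the sum), and the lowest value was that of transgenic replicate 1. On the other 5 arrays 4 of the 11 passed as lower, Sis by -1.17, Fabp1 by -0.48 and Vil1 and Lct by -0.26 each. Cdh1 passed as higher (0.37), and the rest did not pass. Of all genes 14.5% passed as lower there and 14% as higher. The median difference of the list was -0.15 on those arrays, against a median offset of -2.18 on transgenic replicate 1. Lower values of these 4 markers were thus not limited to transgenic replicate 1. The part of the lower enterocyte signal in the members' values, with or without transgenic replicate 1, was not tested. In bulk RNA such as this, fewer cells of a type and less RNA per cell cannot be told apart.

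Slc10a2 is the apical sodium-dependent bile acid carrier, which takes bile acids up from the gut lumen. It (row 10576901, chromosome 8) had 8.43, 10.06 and 9.95 on transgenic replicates 1 to 3, against 5.80, 5.96 and 6.19 on the control arrays. Every transgenic array lay above every control array, and transgenic replicate 1 lay below the other transgenic arrays by more than the whole range of the controls. The means were 9.48 ± 0.91 in transgenic and 5.98 ± 0.20 in control epithelium (log2, SD, n = 3 each). The difference was 3.49 (SE 0.439, 95% interval 2.43 to 4.56, limma adjusted p = 0.00677). It was 4.02, which is 16.2-fold, on the 5 arrays other than transgenic replicate 1. The call held with each array left out in turn, with an adjusted p of up to 0.0445. The control signals reached at most 6.19, while 40% of all genes had a mean under 6.08, and RMA compresses signals at that end of the scale, which bears on the fold.

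Nr1h4 encodes FXR, the main nuclear receptor for bile acids. It (row 10371784, chromosome 10) had 10.05, 10.06 and 9.96 on the transgenic arrays, against 8.57, 8.43 and 8.80 on the control arrays. The 3 transgenic arrays lay within 0.10 of each other, and transgenic replicate 1, the lowest transgenic array for the other 6 members, was not the lowest here. The means were 10.02 ± 0.05 in transgenic and 8.60 ± 0.19 in control epithelium (log2, SD, n = 3 each). The difference was 1.42 (SE 0.114, 95% interval 1.15 to 1.70, limma adjusted p = 0.00196), and it ranged from 1.34 to 1.52 with each array left out in turn, where the adjusted p reached 0.0211.

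The letters before the starts of the uptake carrier, the receptor and the exporter subunits are shown because the results turn on these 4 genes. Each line gives the 250 bases before the start of the RefSeq gene in GRCm38.p6, 5′ to 3′ in the sense of the gene. Capitals mark exact matches, on either strand, to the 3 short motifs that the next paragraph spells out: a nuclear receptor hexamer, a GATA factor element and an HNF1 element.
Slc10a2 (chr8:5105288-5105537, minus strand): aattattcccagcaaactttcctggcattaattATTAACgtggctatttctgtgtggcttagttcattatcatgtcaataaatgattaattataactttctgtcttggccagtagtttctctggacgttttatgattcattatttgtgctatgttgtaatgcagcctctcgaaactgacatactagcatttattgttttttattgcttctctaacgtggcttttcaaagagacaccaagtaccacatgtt
Nr1h4 (chr10:89506659-89506908, minus strand): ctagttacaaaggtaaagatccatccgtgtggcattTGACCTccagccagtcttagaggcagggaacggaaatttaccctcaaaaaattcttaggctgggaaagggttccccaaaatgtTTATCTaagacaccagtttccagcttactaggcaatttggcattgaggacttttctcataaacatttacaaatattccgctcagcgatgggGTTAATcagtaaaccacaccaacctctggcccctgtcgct
Slc51a (chr16:32487880-32488129, minus strand): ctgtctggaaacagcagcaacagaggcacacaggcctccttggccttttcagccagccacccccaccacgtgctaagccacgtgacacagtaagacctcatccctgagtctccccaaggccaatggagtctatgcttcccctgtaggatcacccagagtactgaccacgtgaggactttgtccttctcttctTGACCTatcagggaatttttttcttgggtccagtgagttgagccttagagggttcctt
Slc51b (chr9:65422774-65423023, minus strand): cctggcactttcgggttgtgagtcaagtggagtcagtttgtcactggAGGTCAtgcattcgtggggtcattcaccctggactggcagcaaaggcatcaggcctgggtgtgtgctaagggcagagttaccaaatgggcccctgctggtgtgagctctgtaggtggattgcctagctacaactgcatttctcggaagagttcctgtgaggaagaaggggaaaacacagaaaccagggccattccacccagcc

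Motifs were searched on both strands in the 250 bases before the start, in 6 members with an entry and in all 32851 promoter entries, and no matches of different motifs overlapped in the members. The hexamer AGGTCA, which many nuclear receptors bind, occurred in 3 of the 6, Nr1h4, Slc51a and Slc51b, and in 14% of all entries. The HNF1 element GTTAAT occurred in Slc10a2 and Nr1h4 and in 6.43% of all entries, and the GATA factor element AGATAA in Nr1h4 and in 9.99% of all entries. CAAGGTC, the core of the LRH-1 element, occurred in 0 of the 6 and in 3.32% of all entries. AGGTCA with its reverse complement after 1 base, the arrangement that FXR with RXR is known to bind, was in 0 of the 6 and in 2 of all entries (0.00609%). AGGTCA repeated in the same sense after 1 base was in 0 of the 6 and in 11 of all entries (0.0335%). These counts describe exact letters in a short window and say nothing about binding. Other forms of these elements were not searched, so a promoter without a marked stretch may still hold one.

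Fgf15, the hormone that FXR is known to raise in the ileum, did not pass. It (row 10559373, chromosome 7) had 6.61, 7.62 and 7.83 on the transgenic arrays, against 6.32, 8.42 and 6.67 on the control arrays. The groups overlapped, and the highest array of all 6 was control replicate 2. The means were 7.36 ± 0.66 in transgenic and 7.14 ± 1.13 in control epithelium (log2, SD, n = 3 each), a difference of 0.22 with a 95% interval of -1.27 to 1.70 (limma adjusted p = 0.884). A difference of the size measured for Nr1h4 lies inside this interval. The difference had no settled sign: with each array left out in turn it was -0.19 to 0.86, lowest without control replicate 1 and highest without control replicate 2, and it passed in none of these fits (adjusted p 0.362 to 0.993). It was 0.59 with transgenic replicate 1 left out.

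Fabp6, the cytosolic bile acid binding protein of the ileum, did not pass either. It (row 10385337, chromosome 11) had 4.83, 5.73 and 5.46 on the transgenic arrays, against 4.82, 6.44 and 4.52 on the control arrays. Control replicate 2 was again the highest of all 6, and the groups overlapped. The means were 5.34 ± 0.46 in transgenic and 5.26 ± 1.03 in control epithelium (log2, SD, n = 3 each), a difference of 0.08 with a 95% interval of -1.21 to 1.38 (limma adjusted p = 0.952). It was -0.29 to 0.67 with each array left out in turn, lowest without control replicate 3 and highest without control replicate 2, and passed in none of these fits (adjusted p 0.327 to 0.983). With transgenic replicate 1 left out it was 0.34. Fabp6 was the 1 member of 7 whose mean over the 6 arrays, 5.30, lay among the dimmest 40% of genes.

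Fgf15 and Fabp6 were close to each other in pattern. Every gene's signal was taken minus its control mean, and genes were compared by the Euclidean distance over the 6 arrays. Predicted genes and others with provisional names (such as Gm and Rik), microRNA genes and small nucleolar RNA genes were passed over. Of the remaining genes Fabp6 was the nearest to Fgf15, at 0.698, and Fgf15 the second nearest to Fabp6 after Wdr72, at 0.688 for Wdr72. Control replicate 2 lay 1.29 above the control mean for Fgf15 and 1.18 above it for Fabp6, and 0.72 above it for Wdr72. Among the marker lists, that of the 4 tuft cell markers had the largest offset on the same array, a median 0.68 above the control means. The median offset was 0.09 and -0.78 on control replicates 1 and 3, and -0.01, -0.33 and -0.33 on transgenic replicates 1 to 3. In that order the offsets were -0.82, -0.47, -0.53, 0.49 and 0.70 for Fgf15. For Fabp6 they were -0.44, -0.74, -0.43, 0.48 and 0.20. The tuft cell median had the opposite sign to both genes on control replicate 1 and transgenic replicates 2 and 3. It had the same sign on control replicates 2 and 3 and transgenic replicate 1. The summed signal of the tuft cell markers was 9.19 to 9.62 on the transgenic arrays against 8.81 to 10.28 on the control arrays (log2 of the sum). Of these markers 0 of 4 passed; the part of tuft cell signal in the Fgf15 and Fabp6 values was not tested.

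Slc51a and Slc51b encode the 2 subunits of the basolateral exporter, and neither is known to carry bile acids without the other. Slc51a (row 10439068, chromosome 16) had 6.38, 9.42 and 9.61 on the transgenic arrays, against 10.61, 10.82 and 10.48 on the control arrays. All transgenic arrays lay below all controls, transgenic replicate 1 by far the most. The means were 8.47 ± 1.82 in transgenic and 10.64 ± 0.17 in control epithelium (log2, SD, n = 3 each). The difference was -2.17 (SE 0.851, 95% interval -4.24 to -0.10), with a limma adjusted p of 0.18 that missed the threshold. On the 5 arrays other than transgenic replicate 1 it was -1.12, with a 95% interval of -1.40 to -0.85, and passed (adjusted p = 2.48e-04).

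Slc51b (row 10594519, chromosome 9) had 9.39, 11.92 and 11.93 on the transgenic arrays, against 10.89, 10.84 and 10.64 on the control arrays. Transgenic replicate 1 lay below the controls and the other 2 transgenic arrays lay above them. The means were 11.08 ± 1.46 in transgenic and 10.79 ± 0.14 in control epithelium (log2, SD, n = 3 each), and the difference of 0.29 did not pass (95% interval -1.38 to 1.96, limma adjusted p = 0.86). Without transgenic replicate 1 it was 1.14, or 2.20-fold, and passed (95% interval 0.91 to 1.36, adjusted p = 9.91e-05). On those 5 arrays 3 of the 7 members were called higher and 1 lower, and 28.6% of all genes were called, 14% as higher and 14.5% as lower.

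The log ratio of Slc51a to Slc51b within an array shows how unequally the subunits changed, whatever offset an array has. This ratio was looked at after the values had been seen and is given as a description. It was -3.01, -2.51 and -2.31 on the transgenic arrays, against -0.28, -0.02 and -0.16 on the control arrays (log2). All transgenic arrays, replicate 1 included, lay below all controls. The ratio was lower by a mean of 2.46 log2 units, a 5.49-fold shift, and the shift was -2.61 to -2.26 with each array left out in turn. Since each gene was read by its own probes, only the change of this ratio has a meaning, and it does not tell which subunit changed.

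**Figure D2:**
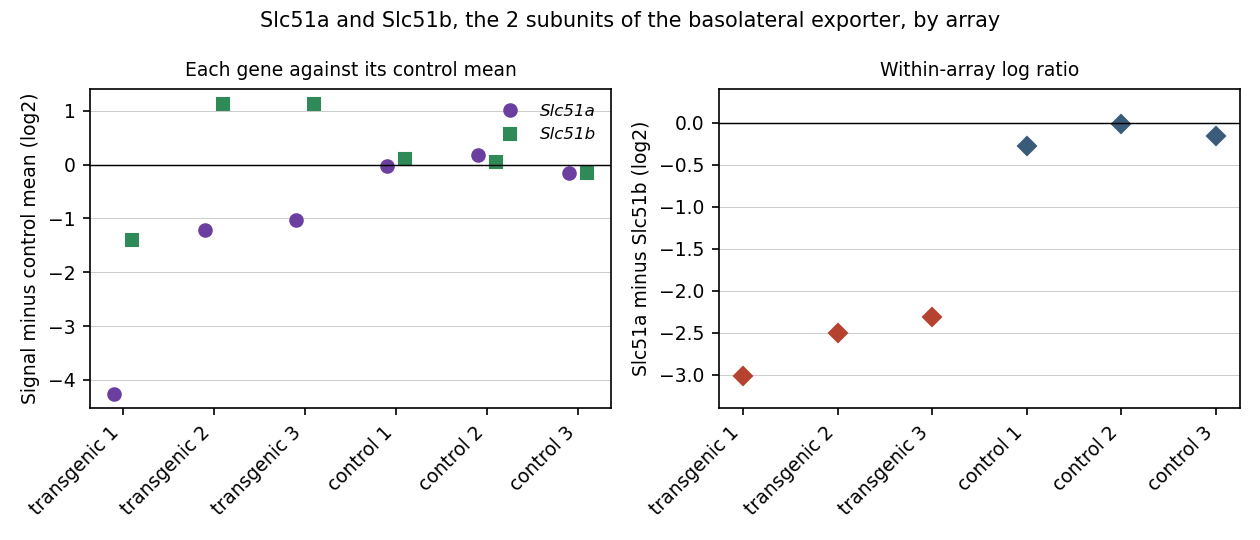
Left, log2 signal of Slc51a (circles) and Slc51b (squares) minus the mean of the 3 control arrays, for each array. Right, the log2 ratio of Slc51a to Slc51b on each array, which lies between -3.01 and -2.31 on the transgenic arrays (red) and between -0.28 and -0.02 on the control arrays (blue).

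Nr0b2, the repressor SHP that FXR is known to raise, did not pass. It (row 10508887, chromosome 4) had 5.68, 6.81 and 6.77 on the transgenic arrays, against 6.95, 6.59 and 6.65 on the control arrays. Transgenic replicate 1 lay below all controls and the other 2 lay among them. The means were 6.42 ± 0.64 in transgenic and 6.73 ± 0.20 in control epithelium (log2, SD, n = 3 each), a difference of -0.31 with a 95% interval of -1.09 to 0.47 (limma adjusted p = 0.642). Leaving out transgenic replicate 1 gave 0.06, with a 95% interval of -0.21 to 0.33.

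**Figure D3:**
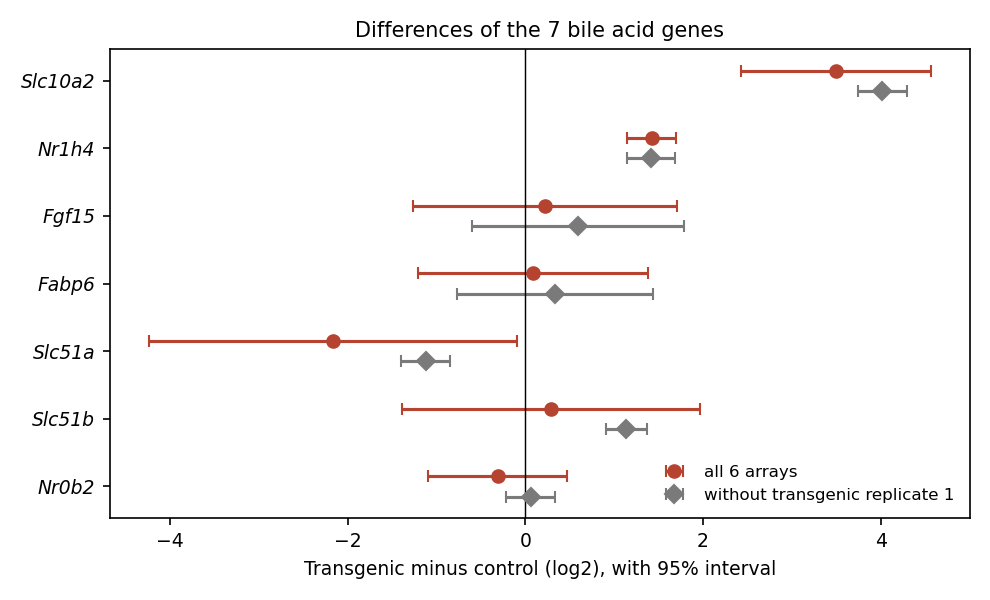
Transgenic minus control difference of each of the 7 genes (log2, horizontal axis) with its 95% interval from the fit over all genes, on all 6 arrays (circles) and without transgenic replicate 1 (diamonds). The intervals of Slc10a2 and Nr1h4 lie above 0 in both, and those of Fgf15, Fabp6 and Nr0b2 include 0 in both. That of Slc51a lies below 0 in both, and that of Slc51b includes 0 on all 6 arrays and lies above 0 without transgenic replicate 1.

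The genes most like the other members by the same distance over 6 arrays, with the same kinds of genes passed over, were these. Nearest to Slc10a2 were Myot, which encodes myotilin (0.625), the acute-phase protein gene Saa3 (0.655) and the EGF receptor ligand gene Ereg (0.826), all 3 lower on transgenic replicate 1 than on the other transgenic arrays. Nearest to Nr1h4 were Rapgef2 (0.0882), Agps of ether lipid synthesis (0.208) and Mid1 (0.228). Nearest to Slc51a were Dpyd of pyrimidine breakdown (0.296), the fructose carrier gene Slc2a5 (0.31) and Entpd8 (0.383). Nearest to Slc51b were Tmem263 (0.186), the sulfate carrier gene Slc26a2 (0.316) and the riboflavin carrier gene Slc52a3 (0.333), and nearest to Nr0b2 were Clec2j (0.183), Rab24 (0.22) and Fosl2 (0.227). The third nearest gene was Slc43a3 for Fgf15 (1.18) and Ffar3 for Fabp6 (1.01).

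The genes around the members were then read in 11 lists of 118 measured genes outside the 7. Of these 118 genes 1 passed as higher and 16 as lower in the transgenic arrays, 14.4% in all, against 11.9% of all genes, with a median difference of -0.18. Without transgenic replicate 1, 12 passed as higher and 39 as lower, 43.2% in all, against 28.6% of all genes. Of all genes 14% passed as higher there and 14.5% as lower. These shares are the background of every later count without that array. With any other array left out 0 or 1 of the 118 passed as higher and 7 to 15 as lower. With all arrays, 11.9% of all genes is the background of every later list count. By list, 18.8% of FXR partners and coregulators, 7.14% of other FXR targets and 7.69% of other carriers passed. The share was 17.6% for transcription factors, 12.5% for the FGF15 route, 11.8% for synthesis and 22.2% for detoxification. It was 44.4% for distal markers, and 0% for other Slc10 members, other receptors and proximal markers.

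Nuclear receptors and coregulators that work with FXR made up the list nearest to Nr1h4 in role. Of 16 measured partners and coregulators 2 fell and 1 rose, with a median difference of -0.01. Rxra, the main RXR partner, had 7.06, 8.03 and 8.06 on the transgenic arrays, against 9.23, 9.21 and 9.21 on the control arrays, with no overlap. Rxra fell by 1.50 (SE 0.272, limma adjusted p = 0.0211), but the call was lost without any 1 control (adjusted p up to 0.0937); without transgenic replicate 1 the difference was -1.17. Rxrb fell by 0.40 (adjusted p = 0.0433) and the coactivator gene Ncoa6 rose by 0.48 (adjusted p = 0.0198). The Rxrb call was lost when any 1 of the 5 arrays other than transgenic replicate 1 was removed (up to 0.184), and the Ncoa6 call on removal of transgenic replicate 2 or any 1 control (up to 0.0919). The histone methyltransferase gene Kmt2d differed by -0.39 (adjusted p = 0.072, not passed) and passed as lower with transgenic replicate 1 left out (-0.29, adjusted p = 0.026).

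Among other genes reported to respond to FXR, 1 of 14 fell and 0 rose, with a median of 0.10. Smpd3, a neutral sphingomyelinase gene, had 8.45, 8.31 and 8.32 on the transgenic arrays, against 9.44, 9.57 and 9.42 on the control arrays, and fell by 1.12 (SE 0.0863, limma adjusted p = 0.00185). The canalicular bile salt pump gene Abcb11 differed by 0.52, Vldlr by 0.88 and Abcc2 by -1.09, and none of these 3 passed (adjusted p = 0.166, 0.176 and 0.102). With transgenic replicate 1 left out, 4 of the 14 passed as higher and 2 as lower. These included Abcb11 (0.30, adjusted p = 0.0457), Vldlr (0.47, adjusted p = 0.00659) and Abcc2 (-0.68, adjusted p = 0.00124), whose differences were all smaller there.

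Of 13 other carriers that handle bile acids or their conjugates, 1 fell and 0 rose, with a median of -0.10. Abcc3, a basolateral exporter of conjugated organic anions, had 7.73, 8.09 and 8.02 on the transgenic arrays, against 9.34, 9.15 and 9.14 on the control arrays. Abcc3 fell by 1.27 (SE 0.123, limma adjusted p = 0.00343), with an adjusted p of up to 0.0286 when any array was left out. The organic anion carrier gene Slco2b1 differed by -0.53 (adjusted p = 0.174, not passed), and by -0.30 with a call as lower on the 5 arrays other than transgenic replicate 1 (adjusted p = 0.0386). Of the 5 measured relatives of Slc10a2 in the Slc10 family 0 passed. Slc10a5 had 6.81, 8.97 and 8.84 on the transgenic arrays, against 10.03, 9.84 and 10.22 on the control arrays (difference -1.83, adjusted p = 0.105), and passed as lower without transgenic replicate 1 (-1.13, adjusted p = 2.61e-04). Slc10a7 differed by -0.37 (adjusted p = 0.061) and likewise passed on those 5 arrays (-0.43, adjusted p = 0.00632). Slc10a6 differed by -0.10 (adjusted p = 0.646) and the liver carrier gene Slc10a1 by 0.05 (adjusted p = 0.854).

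Of 17 transcription factors and receptors reported to act on Slc10a2, Fgf15 or Fabp6, 3 fell and 0 rose, with a median of -0.21. Zfpm1, which encodes the GATA cofactor FOG1, had 7.53, 7.78 and 7.70 on the transgenic arrays, against 9.08, 9.16 and 9.01 on the control arrays, and fell by 1.41 (SE 0.0971, limma adjusted p = 0.00158). The retinoic acid receptor gene Rara had 6.72, 6.64 and 6.67, against 8.09, 7.95 and 7.87 on the control arrays, and fell by 1.30 (SE 0.0884, adjusted p = 0.00158). Both calls held with each array left out in turn (adjusted p up to 0.0174 and 0.0168). Klf15, which in the mouse is known to repress Fgf15, fell by 0.64 (adjusted p = 0.0164), a call lost without any 1 control (up to 0.0867). Gata4 itself, named here after its value was seen, had 9.69, 9.84 and 9.84 on the transgenic arrays, against 9.85, 9.89 and 9.85 on the control arrays (difference -0.07, 95% interval -0.27 to 0.12, adjusted p = 0.672).

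Of 6 other bile acid receptors 0 passed, with a median of -0.34. The vitamin D receptor gene Vdr, which also senses lithocholic acid, differed by -1.62 (adjusted p = 0.0601) and Nr1i3 by -1.53 (adjusted p = 0.248), and both passed as lower without transgenic replicate 1 (-1.11 and -0.67). The muscarinic receptor gene Chrm3 differed by -0.46 (adjusted p = 0.138) and was also called lower without that array (-0.62, adjusted p = 0.00176). The pregnane X receptor gene Nr1i2 had 8.97, 10.66 and 10.62 on the transgenic arrays, against 10.31, 10.18 and 10.45 on the control arrays. It differed by -0.23 with all arrays (adjusted p = 0.83) and passed as higher without transgenic replicate 1 (0.33, adjusted p = 0.0401). In the FGF15 route 1 of 8 genes fell and 0 rose, with a median of -0.20. Fgfr2 fell by 0.91 (adjusted p = 0.00964, up to 0.0571 and lost without control replicate 1 or 3), and Fgfr3 differed by -0.64 (adjusted p = 0.0529). Fgfr4, the FGF15 receptor of the liver, had 9.49, 7.24 and 7.20 on the transgenic arrays, against 6.44, 6.65 and 6.48 on the control arrays (difference 1.45, adjusted p = 0.213). Malrd1, known to promote FGF15 secretion, differed by -0.59 (adjusted p = 0.193). With transgenic replicate 1 left out the last 3 genes passed, Fgfr3 at -0.79 and Malrd1 at -0.31 as lower and Fgfr4 at 0.70 as higher (adjusted p = 9.24e-04, 0.0241 and 7.73e-04).

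Of 17 bile acid synthesis genes 2 fell and 0 rose, with a median of -0.06. Hsd17b4, a peroxisomal enzyme of side-chain shortening, had 8.98, 9.04 and 9.12 on the transgenic arrays, against 10.71, 10.50 and 10.75 on the control arrays, and fell by 1.61 (SE 0.0994, limma adjusted p = 0.00137). Hsd3b7, which acts on the steroid ring, fell by 0.76 (SE 0.0771, adjusted p = 0.00373). Both calls held with each array left out in turn. Amacr and Slc27a2, which act on the side chain and on its activation, differed by -0.53 and -1.66 (adjusted p = 0.0534 and 0.0614, neither passed), and passed at -0.41 and -1.14 with transgenic replicate 1 left out (adjusted p = 0.012 and 6.74e-05). Of 9 measured bile acid detoxification genes 2 fell and 0 rose, with a median of -1.03. Ugt2b34 fell by 1.03 (adjusted p = 0.0102, lost without any 1 control, up to 0.0604) and Cyp3a25 by 3.66 (adjusted p = 0.0496, lost on removal of any 1 of the 5 arrays other than transgenic replicate 1, up to 0.17). Cyp2b10 and Gsta4 differed by -1.99 and 0.47 (adjusted p = 0.344 and 0.206, neither passed). With transgenic replicate 1 left out Cyp2b10 passed as lower at -0.64 (adjusted p = 0.00377) and Gsta4 as higher at 0.58 (adjusted p = 0.0431). The detoxification list had a median of -2.52 on transgenic replicate 1, and the enterocyte markers one of -2.18 on the same array; the part of enterocyte signal in the detoxification values was not tested. With that array left out the detoxification list had a median difference of -0.30, with 1 gene higher and 3 lower.

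Slc10a2 is known as a gene of the distal small intestine, and other markers of that region were read beside it. Of 9 measured distal markers outside the members 4 fell and 0 rose, with a median of -0.69. Without transgenic replicate 1, 5 passed as lower and 1, Muc3 (0.29, limma adjusted p = 0.0452), as higher, with a median of -0.43. The cubilin gene Cubn, which serves vitamin B12 uptake in the ileum, had 5.68, 8.42 and 8.12 on the transgenic arrays, against 11.64, 11.81 and 11.88 on the control arrays, and fell by 4.37 (SE 0.704, limma adjusted p = 0.0146). Its partner Amn fell by 1.39 (SE 0.26, limma adjusted p = 0.0229), and the hormone genes Gcg and Pyy by 1.54 (adjusted p = 0.00192) and 0.62 (adjusted p = 0.0224). Gcg and Pyy are also in the list of enteroendocrine markers, so their falls are counted in both lists. The Gcg call held whichever array was removed. That of Cubn was lost on removal of any 1 control (up to 0.074), and those of Amn and Pyy on removal of transgenic replicate 2 or any 1 control (up to 0.104 and 0.0863). Of 14 proximal markers 0 passed, with a median of -0.51 that was -0.24 without transgenic replicate 1; on those 5 arrays 5 of the 14 passed as lower and 0 as higher. Among them the fatty acid binding protein gene Fabp1 differed by -1.26 and the hormone genes Gip, Cck and Ghrl by -1.14, -0.54 and -0.55 with all arrays (adjusted p = 0.295, 0.288, 0.223 and 0.106). On those 5 arrays Fabp1 (-0.48), Gip (-0.45) and Ghrl (-0.36) passed as lower, and Cck (-0.30) did not pass (adjusted p = 0.00389, 0.00599, 0.0174 and 0.15).

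**Figure D4:**
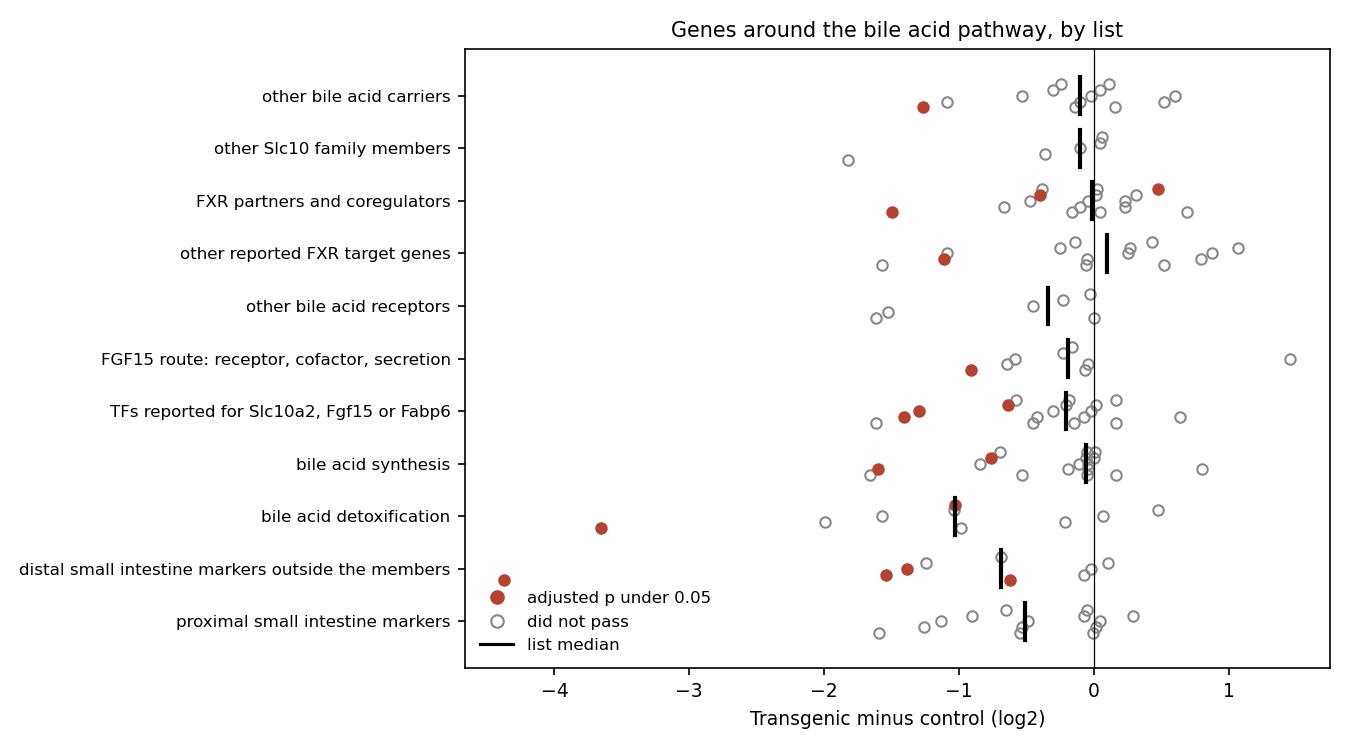
Transgenic minus control difference (log2, horizontal axis) of each measured gene in the 11 lists around the bile acid pathway. Red points passed at an adjusted p under 0.05, open points did not, and black bars mark list medians; a gene in several lists appears in each. Of the 118 genes 16 passed as lower and 1, Ncoa6, as higher.

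The members were also set beside marker lists of the cell types that the preparation could hold. Of 8 hepatocyte markers 1 rose, Tat, and 0 fell, with a median difference of 0.10. Their summed signal was 10.75 to 11.01 on the transgenic arrays and 8.55 to 8.62 on the control arrays (log2 of the sum). That sum includes Tat, which had the highest transgenic mean of the 8, followed by Ttr at 6.68. Tat, a tyrosine aminotransferase gene, averaged 10.55 ± 0.19 in transgenic and 5.39 ± 0.07 in control epithelium (log2, SD, n = 3 each). Fgb, a fibrinogen chain gene, had 5.49, 5.58 and 5.57 on the transgenic arrays, against 5.24, 5.27 and 5.38 on the control arrays, and did not pass (0.25, adjusted p = 0.11). With transgenic replicate 1 left out 3 of the 8 passed as higher, Tat, Fgb (0.28, adjusted p = 0.0425) and the transthyretin gene Ttr (0.40, adjusted p = 0.0427). The other 2 hepatocyte markers given here were chosen after their values were seen. Alb, the albumin gene, had 5.24, 5.04 and 5.21 on the transgenic arrays, against 5.22, 5.23 and 4.87 on the control arrays, and Cyp7a1, the rate-limiting enzyme of bile acid synthesis in the liver, had 3.98, 3.81 and 3.99, against 3.98, 3.92 and 3.85 on the control arrays. The part of hepatocyte marker signal in the members' values was not tested. Slc10a2 is also expressed in cholangiocytes. Of 4 cholangiocyte markers 0 passed, and their summed signal was 12.15 to 12.62 on the transgenic arrays and 12.13 to 12.17 on the control arrays (log2 of the sum). In control jejunal epithelium these markers averaged from 8.53 (Krt7) to 11.56 (Krt19, the highest of the 4), so the list cannot single out cholangiocytes. The list had a median offset of 0.87 on transgenic replicate 1 and of 0.07 and 0.04 on transgenic replicates 2 and 3. Its members differed in direction with transgenic replicate 1 left out, where Cftr passed as higher (0.45, adjusted p = 0.00959) and Sox9 as lower (-0.65, adjusted p = 0.00166). The part of cholangiocyte marker signal in the Slc10a2 values was not tested.

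**Figure D5:**
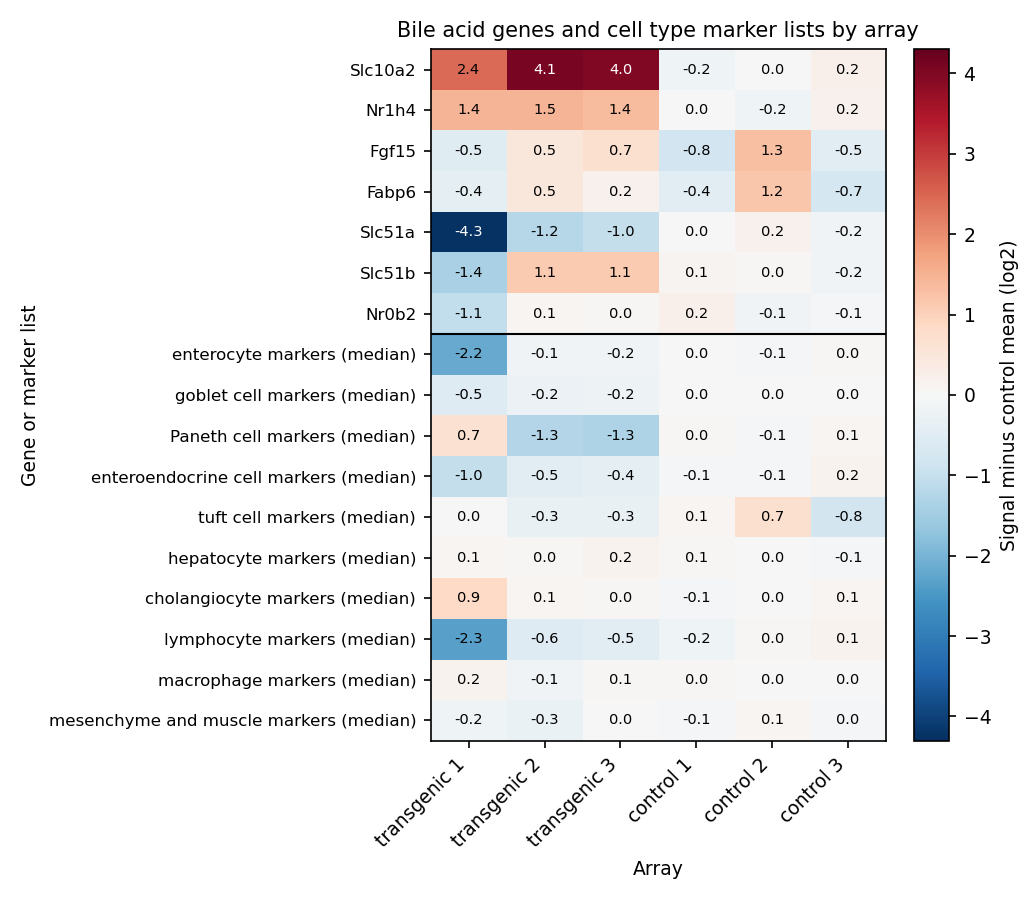
Log2 signal minus the mean of the 3 control arrays, for the 7 genes (upper rows) and for the median of each cell type marker list (lower rows), on each array (columns). Blue is lower and red is higher than the control mean. On transgenic replicate 1 the enterocyte list is at -2.18 and Slc51a at -4.26, while Slc10a2 is at 2.44 and Nr1h4 at 1.45.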

How the data were processed

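The deposited values were log2 signals, made by the authors from 250 ng of RNA per array; the submitters' processing notes name RMA (background correction, quantile normalization and probe summary) and Partek 6.5, while settings and genome build were not given in the sources used here. Because RMA equalises the distributions of the arrays, a change of total RNA per cell cannot show. The table held 35399 rows (2.41 to 13.5, array medians 6.27 to 6.34), of which 21789 had 1 gene symbol, 1621 several and 11989 none in the platform annotation; a gene's brightest row was kept, with no filter on dim genes. Precision is limited by the 3 arrays of each group, and p-values cover the spread between these 3 and no more.

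Differences, transgenic minus control, were fitted over all 19938 genes with limma 3.58.1 in R 4.3.3 (lmFit, eBayes) with Benjamini-Hochberg adjustment. The fit was tested on simulated data whose spread was taken without transgenic replicate 1. That test does not cover an array that stands apart. With 3 arrays a side the smallest exact permutation p (two-sided) is 0.1, so none is quoted. The members and lists were chosen with earlier results of these data known. Named genes were the members, Msi1 and Msi2, and up to 4 genes per pathway list with the smallest p. Any needed to show a call in the other direction were added. So were the 3 genes nearest to each member, with predicted and small RNA genes passed over. Marker lists were given by count and median, with some markers by value. Gene chromosomes and promoter letters come from RefSeq, GRCm38.p6 (7 members matched by Entrez ID, 6 had a promoter entry). Each array was left out in turn; other alternatives were array weights, replicate blocks, an eBayes fit with trend, 2 further scalings (quantile, equal medians), leaving out the dimmest 40% of genes, averaging or testing all rows of a gene, and a threshold of 0.1.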

Additional observations from a re-analysis of the deposited data

How the results depend on the processing

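The calls of Slc10a2 and Nr1h4 as higher held under every alternative run. Fgf15, Fabp6 and Nr0b2 passed under none of them, with no value for Fabp6 where the dimmest genes were removed. Slc51a was called lower, and Slc51b higher, with array weights, with the block on description numbers and without transgenic replicate 1, so that 1 member was called lower and 3 higher there, against 0 lower and 2 higher otherwise. Each of these settings gave transgenic replicate 1 little or no weight, so they are not independent of each other. The numbers of the titles gave no sign of pairing (correlations of deviations between same-numbered arrays -0.0696, -0.1682 and -0.1218). This check cannot exclude pairing, since deviations were taken from means of 3 arrays, with transgenic replicate 1 in the transgenic mean. With a replicate block on the title numbers 733 genes were called (2368 without), 0 pathway genes as higher and 10 as lower, and the members' calls did not change. A replicate block on the description numbers, which 2 pairs of arrays share, left transgenic replicate 1 and control replicate 1 without a partner. Those 2 arrays then added nothing to the difference between groups. The 2 pairs that share a description number are also same-numbered in the titles, so their correlations of deviations (-0.1682 and -0.1218) are no separate check. This block gave 4019 genes, with 10 pathway genes higher and 29 lower. Array weights, 0.12 for transgenic replicate 1, gave 5770, 10 and 34. With eBayes trend and robust settings 0 pathway genes were called higher. With each array left out in turn the genes called ranged from 683 to 5700, members called lower from 0 to 1, and pathway genes from 0 to 12 higher and from 7 to 39 lower; each highest value was without transgenic replicate 1, and 683, 728 and 879 genes were called without control replicates 1, 2 and 3 and 1169 without transgenic replicate 2. The Nr1i2 difference was -0.51 to 0.33 over these fits, 0.33 and called without transgenic replicate 1, against -0.23 with all arrays; the cause was not tested. Quantile normalization and equal array medians moved the median difference of all genes by 0.01 and 0.04. The files give no background signal, so what is detected could not be told for dim genes such as Fabp6.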

Other observations

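The remaining marker lists describe the epithelium in which the bile acid genes were read. Of 6 goblet cell markers 1 fell, Muc2, with a median of -0.39, and of 7 enteroendocrine markers 3 fell, Gcg, Pyy and Chgb, with a median of -0.62, and 0 passed as higher in either list. Gcg and Pyy are the same genes that were counted among the distal markers above. The Muc2 call was lost on removal of any 1 of the 5 arrays other than transgenic replicate 1 (adjusted p up to 0.163), that of Chgb on removal of transgenic replicate 3 or any 1 control (up to 0.106) and that of Pyy on removal of transgenic replicate 2 or any 1 control (up to 0.0863). With transgenic replicate 1 left out 3 goblet cell markers passed as lower, Muc2, Tff3 and Spdef, and of the enteroendocrine markers 4 passed as lower and 1, Neurod1, as higher. Of all genes 28.6% were called without that array. Of 5 Paneth cell markers 0 passed with all arrays. Their median offset from the control means was 0.67 on transgenic replicate 1 and -1.27 and -1.34 on transgenic replicates 2 and 3, and without transgenic replicate 1 all 5 passed as lower. Of 6 measured lymphocyte markers 0 passed, with a median of -1.15, and 4 passed as lower without transgenic replicate 1. Of 5 macrophage markers 0 passed (median -0.05), and of 6 mesenchyme and muscle markers 1 fell, Vim (median -0.13), a call lost on removal of transgenic replicate 2 or any 1 control (adjusted p up to 0.101).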
